A study of Homo sapiens with 8 samples.

Results

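The HEL comparison set 2 libraries of HEL cells carrying an shRNA against DDX6 beside 2 libraries of HEL cells carrying a control shRNA. It used 4 of the 8 libraries of the series. Its members were all genes that passed an expression filter set within HEL alone, which took 14918 of the 61544 entries of the HEL count table. HEL is an established acute myeloid leukaemia cell line with erythroid and megakaryocytic features. Cells of both groups were transduced with a lentivirus and selected with puromycin. The labels give the control group the genotype WT and the other group the genotype DDX6 knockdown. The table's column names carry the words "shRNA2" for the DDX6 columns, so the comparison rests on 1 hairpin in 1 cell line, and the sources used here do not state the time between transduction and harvest. It is also unstated whether the replicates were separate cultures, so p-values reflect library-to-library spread alone and that spread may be technical.

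DDX6 is a DEAD-box RNA helicase of the cytoplasm. It binds partners that repress translation and promote removal of the mRNA cap, and it is needed for P-bodies, granules in which untranslated mRNA and decay factors collect. Erythroid and megakaryocytic cells descend from a shared progenitor, and lines such as HEL express parts of both programmes.

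Depth was even, with 10719829 to 12093544 counts per library, and a gene with 3 counts stood at 0.248 to 0.280 CPM, the unit that scales counts by library size. The 10 most abundant genes held 3.10% to 3.29% of counts and mitochondrially encoded genes 2.66% to 2.84%. DDX6 (chromosome 11, 118747766 to 118791149, minus strand, GRCh38) had 2229 and 2150 counts in the controls and 1124 and 1048 in the DDX6 shRNA libraries, and the groups did not overlap. Its log2 fold change, DDX6 shRNA over control, was -0.93 ± 0.05 (SE; edgeR quasi-likelihood test with Benjamini-Hochberg adjustment, adjusted p = 5.24e-14). That test was used for every gene below, "rose" and "fell" are written only of genes with an adjusted p under 0.05, and every value after "log2" is this fold change with its SE. Of the 14918 genes tested, 3578 rose (24.0%) and 3297 fell (22.1%), 46.1% in either direction. DESeq2 called fewer, 2152 higher (14.4%) and 1784 lower, 26.4% in either direction. Changes of at least 2-fold were 707 rises (4.74%) and 220 falls (1.47%). The median log2 fold change of all genes tested was -0.01. These are bulk samples, in which fewer cells of a type and less RNA per cell cannot be told apart, and no spiked RNA standard is described in the labels, so each change is relative to the rest of the library.

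The 15 largest rises at a mean of 5 CPM or more in at least 1 group had log2 fold changes from 2.31 (ECM1) to 3.53 (CTSG). CTSG, which encodes cathepsin G, a serine protease of myeloid granules, had 6 and 4 counts in the controls and 54 and 58 with DDX6 shRNA (log2 3.53 ± 0.35, edgeR adjusted p = 9.50e-09). SERPINI1, encoding neuroserpin, an inhibitor of tissue plasminogen activator, had 105 and 109 against 665 and 553 counts (log2 2.59 ± 0.10, edgeR adjusted p = 3.03e-16). FAIM2, an inhibitor of death-receptor signalling known from neurons, had 85 and 104 against 596 and 615 counts (log2 2.76 ± 0.11). The rule took only genes without overlap of libraries between groups, so in these 3 genes both DDX6 shRNA libraries lay above both controls by selection. GALNT5, an enzyme that starts O-linked glycosylation, had 15 and 14 against 115 and 103 counts (log2 2.98 ± 0.23). ECM1, a secreted matrix glycoprotein, had 48 and 46 against 225 and 215 counts (log2 2.31 ± 0.14). OTOF, encoding the vesicle fusion protein otoferlin, had 40 and 43 against 218 and 177 counts (log2 2.33 ± 0.16). FAM131B rose from 41 and 38 to 271 and 248 counts (log2 2.79 ± 0.14). The other rises chosen by the same rule had log2 fold changes between 2.38 and 3.03. They were those of TP53I11, the olfactory-type receptor gene OR51E1, the homeobox gene DLX3, the adhesion receptor gene ADGRA2, the small GTPase gene REM1, the platelet chemokine gene PPBP, the divergent transcript DUSP5-DT and the protocadherin gene PCDH17. Of the genes named in this paragraph, CTSG, TP53I11, OR51E1, DLX3 and PPBP did not reach the filter's cut-off in both control libraries and so entered through the DDX6 shRNA group. ADGRA2 shares exon sequence with BRF2 and REM1 with DEFB124 on the opposite strand. Whether counting used strand is not given in the sources used here, so reads from such partners cannot be told apart. The same holds for 2115 called genes in all, among them TUBA4A (STK16), SQSTM1 (MRNIP), ARG2 (VTI1B), STXBP5-AS1 (STXBP5), ALOX12 (ALOX12-AS1) and TFPI (CALCRL-AS1).

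The 15 largest falls were shallower, from -1.56 (CARF) to -1.25 on the log2 scale. PCK2, the mitochondrial phosphoenolpyruvate carboxykinase, had 990 and 888 counts in the controls and 325 and 317 with DDX6 shRNA (log2 -1.47 ± 0.07, edgeR adjusted p = 1.11e-14). CBS, cystathionine beta-synthase, the entry enzyme of transsulphuration, had 99 and 91 against 29 and 34 counts (log2 -1.51 ± 0.20, edgeR adjusted p = 1.08e-06). HSD17B12, a reductase of fatty acid elongation, had 517 and 478 against 181 and 213 counts (log2 -1.25 ± 0.09). The absence of overlap between groups for these enzymes was again set by the rule that chose them. PTPN9, a tyrosine phosphatase of the cytoplasm, had 726 and 664 against 240 and 207 counts (log2 -1.55 ± 0.08, edgeR adjusted p = 5.34e-14). JDP2, a repressor that pairs with AP-1 transcription factors, had 282 and 258 against 87 and 88 counts (log2 -1.54 ± 0.12). ADCYAP1, encoding the neuropeptide PACAP, had 375 and 376 against 125 and 129 counts (log2 -1.48 ± 0.10). The largest fall in this set was that of CARF, a calcium-responsive transcription factor gene, with 216 and 194 against 53 and 78 counts (log2 -1.56 ± 0.15). MAGEF1, DENND11, N4BP3, ZBED3 and ZBTB12 had log2 fold changes from -1.43 to -1.30, and ZBTB12 shares exon sequence with C2 on the opposite strand. HSD17B7P2 and SMG1P7 are pseudogenes with near-identical relatives, so their falls are uncertain.

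At a mean of 100 CPM or more in at least 1 group, where counting error is small, the 10 rises with the smallest p had log2 fold changes from 1.11 (IGFBP5) to 2.26 (SLC37A2). HSPA5, the main chaperone of the endoplasmic reticulum lumen, went from 6372 and 5962 counts to 14062 and 12758 (log2 1.20 ± 0.04, edgeR adjusted p = 2.18e-18). VWA5A, a protein with a von Willebrand factor A domain, had the smallest p, with 1351 and 1294 against 4413 and 3929 counts (log2 1.74 ± 0.04, edgeR adjusted p = 3.17e-19). SLC37A2, a sugar phosphate carrier of the endoplasmic reticulum, had 302 and 291 against 1370 and 1317 counts (log2 2.26 ± 0.06). In all 3 the 2 libraries of each group lay close together beside the gap between groups, which choosing by p favours. NTS, the precursor of the peptide neurotensin, had 472 and 465 against 1793 and 1651 counts (log2 1.96 ± 0.06). LGALS1, encoding the secreted lectin galectin-1, had 618 and 650 against 2080 and 1886 counts (log2 1.73 ± 0.06). ALDH1A1, a retinal dehydrogenase, had 2047 and 1902 against 4792 and 4322 counts (log2 1.29 ± 0.04). The carboxypeptidase gene CTSA (log2 1.88 ± 0.06), the growth factor binding protein gene IGFBP5 (1.11 ± 0.04), the helix-loop-helix inhibitor gene ID2 (1.23 ± 0.04) and the actin-severing gene GSN (1.48 ± 0.05) completed the set. CTSA shares exon sequence with PLTP and NEURL2 on the opposite strand.

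The falls chosen in the same way had log2 fold changes from -1.07 (NORAD) to -0.68 (GARS1). NORAD, a long noncoding RNA that binds Pumilio proteins, went from 7964 and 7386 counts to 3486 and 3435 (log2 -1.07 ± 0.04, edgeR adjusted p = 3.66e-17). H1-10, a linker histone gene, had 1750 and 1671 against 825 and 831 counts (log2 -0.96 ± 0.05). EIF4B, a cofactor of the initiation helicase eIF4A, had 9729 and 8847 against 5697 and 5118 counts (log2 -0.70 ± 0.04). The control libraries were higher without overlap for all 3, which choosing by p favours. CSF2RB, the shared beta chain of the receptors for interleukin 3 and GM-CSF, had 3904 and 3752 against 2285 and 2117 counts (log2 -0.72 ± 0.04, edgeR adjusted p = 3.57e-13). The RNA-binding protein genes TAF15 and HNRNPUL1 fell (log2 -0.91 ± 0.04 and -0.69 ± 0.04), and they share exon sequence with HEATR9 and TGFB1 on the opposite strand. CEP57, a centrosome protein gene, fell by 1.01 ± 0.05 on the log2 scale, the small nucleolar RNA host SNHG29 by 0.81 ± 0.04 and the glycyl-tRNA synthetase gene GARS1 by 0.68 ± 0.04.

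**Figure D1:**
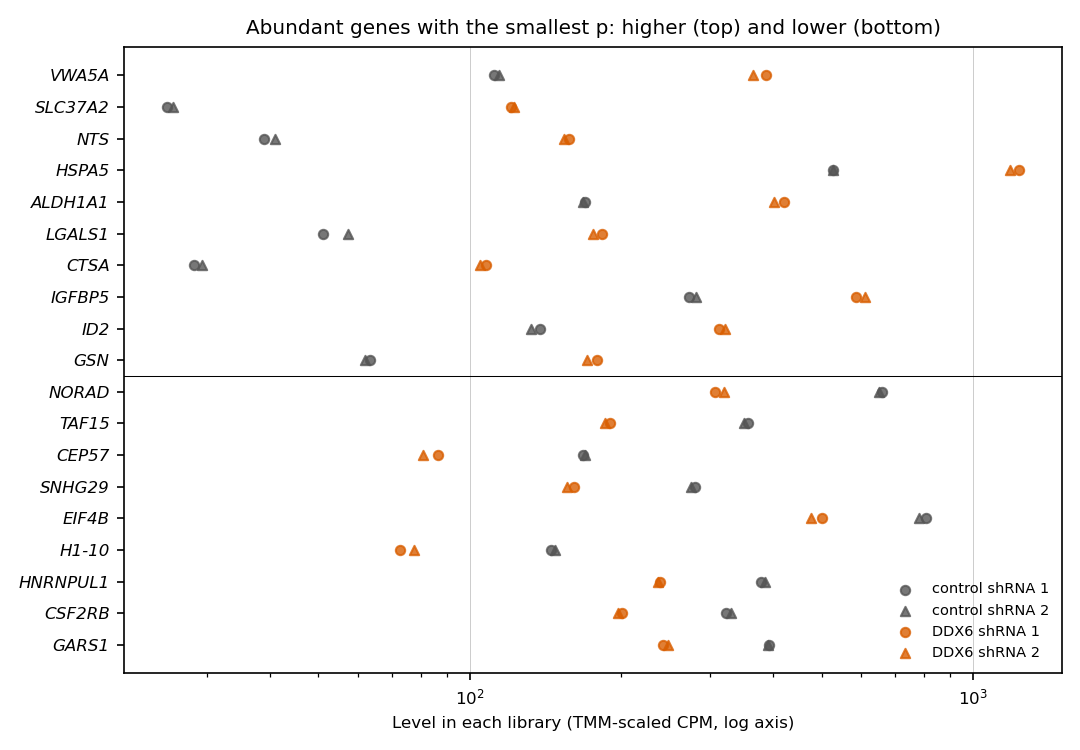
Level of 19 abundant genes in each of the 4 HEL libraries, in TMM-scaled CPM on a log axis, with grey symbols for control shRNA and orange for DDX6 shRNA. The 10 genes above the line rose and the 9 below it fell, with no overlap between groups. HSPA5 and NORAD, for example, lay at 6372 and 5962 against 14062 and 12758 counts and at 7964 and 7386 against 3486 and 3435 counts.

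A few genes went from near absence to a low level. ATP1B4, a protein related to the beta subunits of the sodium pump, had 0 counts in the controls together and 70 with DDX6 shRNA, at least 24.6-fold higher when the control group is set to a floor of 3 counts. ATP9A, a phospholipid-transporting ATPase gene, had 0 and 34, at least 11.9-fold higher. SYTL4, encoding the granule-docking protein granuphilin, had 2 and 81 counts, which is 42.7-fold (95% interval 11.4 to 358.6, from counting alone), and shares exon sequence with SRPX2 on the opposite strand. HEY1, a target gene of Notch signalling, had 3 and 74 counts (ratio 26.0, interval 8.56 to 129.0). LINC00520 had 1 and 64 counts (ratio 67.5, interval 11.7 to 2706). These genes stayed near the bottom of what the libraries can count. The orphan nuclear receptor gene NR5A2 had 3 and 54 counts (ratio 19.0, interval 6.16 to 94.9), the inflammasome protease gene CASP1 had 3 and 37 (interval 4.12 to 65.9) and the RNA-binding protein gene LIN28A had 3 and 35 (ratio 12.3, interval 3.88 to 62.5). PYHIN1 and NFIA-AS2 were the other genes named by this rule, which kept only those with the largest counts. In the opposite direction none met it among the genes open to naming, which leave out those known earlier and entries without a unique symbol. Intervals and floors cover counting error only.

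To describe pathways, 76 gene lists were drawn up, with 7874 symbols in the table, of which 3164 were tested. Directions differed between broad groups of these lists. Among 258 tested genes of the cell surface and secreted proteins, 117 rose (45.3%) and 32 fell (12.4%), against 24.0% and 22.1% of all genes, with a median log2 fold change of 0.30. Some of these rises were in genes that did not reach the filter's cut-off in both control libraries. Among members that did, 9 of 12 cadherins rose and 0 fell. For lectins it was 13 and 2 of 23, and for keratins and other intermediate filaments 5 and 3 of 11. Among 456 genes of nuclear proteins, 70 rose (15.4%) and 137 fell (30.04%), median -0.07. Lipid genes (53 higher and 22 lower of 134), membrane transport (69 and 27 of 187), cytoskeleton and traffic (191 and 90 of 492) and signalling (169 and 71 of 459) leaned towards rises. Central metabolism (49 and 42 of 179), the ubiquitin system (60 and 66 of 250) and mitochondria (20 and 16 of 83) had shares nearer to the background. In 39 lists a larger share of members rose and a smaller share fell than among all genes, by any margin, and in 15 the reverse held. No test was run over any list.

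**Figure D2:**
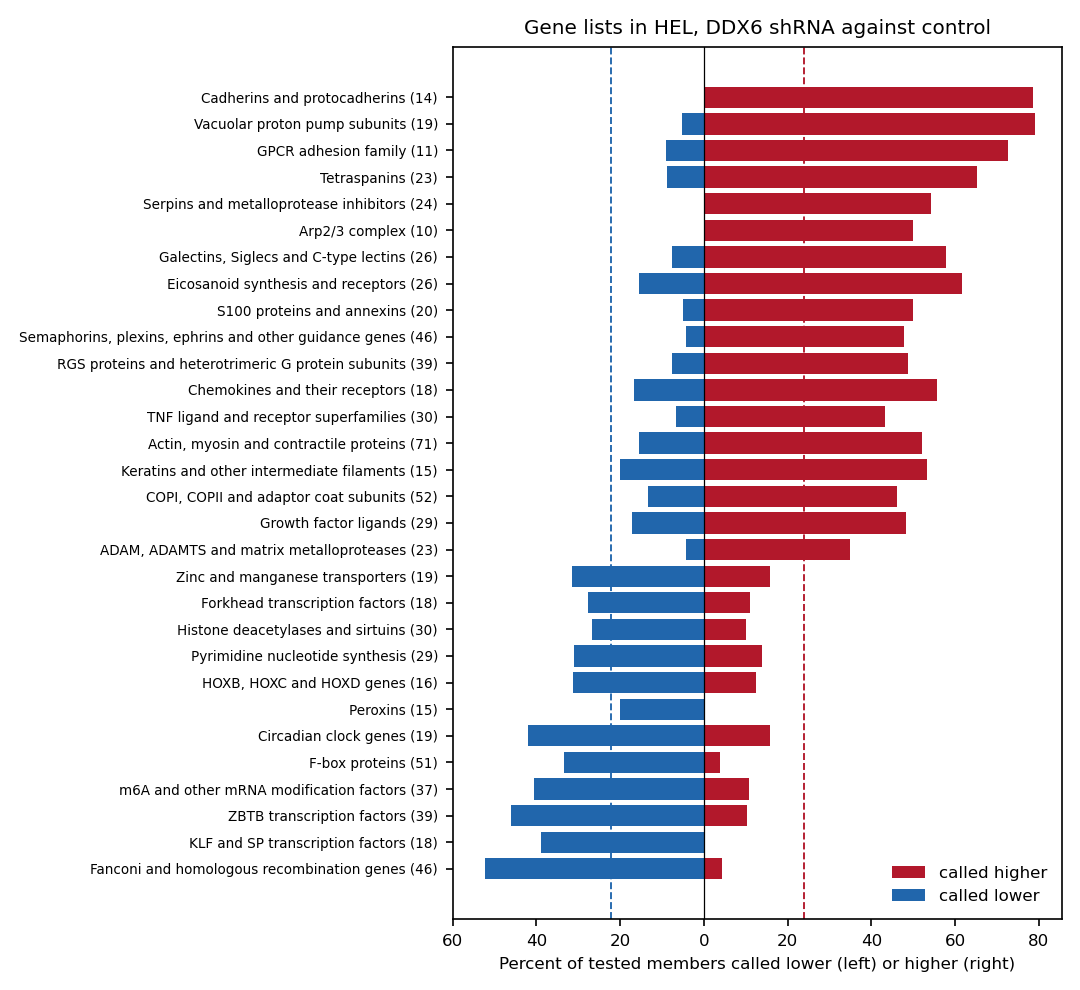
Percent of tested members called higher (right, red) and lower (left, blue) in 30 gene lists with at least 10 tested members, being the 18 lists with the largest surplus of rises and the 12 with the largest surplus of falls, with the number tested in parentheses. Dashed lines mark the shares among all genes, 24.0% and 22.1%. Surface, secreted and actin lists lie at the top, and DNA repair, transcription factor and F-box lists at the bottom.

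Cadherins join cells through calcium-dependent contacts, and 11 of the 14 tested members rose while 0 fell (median log2 fold change 0.78). Only 14 of 106 listed cadherin and protocadherin genes were tested, and among the 12 that reached the cut-off in both control libraries 9 rose. PCDH17 had 12 and 12 counts in the controls and 62 and 57 with DDX6 shRNA (log2 2.38 ± 0.28), and FAT4, a giant cadherin of planar cell polarity, had 21 and 32 against 104 and 76 (log2 1.84 ± 0.23). DCHS1, the ligand of FAT4, had 127 and 135 against 196 and 212 counts (log2 0.72 ± 0.12), so both partners of this pair rose. DESeq2 called 6 of the cadherins. Of 23 tested tetraspanins, which organise membrane domains, 15 rose and 2 fell, and the 2 falls were lost without DDX6 shRNA replicate 1 or control replicate 2 (0 each). TSPAN13 (log2 0.80 ± 0.06), TSPAN9 (0.70 ± 0.06), CD82 (0.57 ± 0.05) and CD151 (0.50 ± 0.05) were the clearest, and CD151 shares exon sequence with POLR2L on the opposite strand. Adhesion G protein-coupled receptors rose in 8 of 11 cases and fell in 1, or 0 without control replicate 1. ADGRG1, known as GPR56, had 425 and 462 against 817 and 770 counts (log2 0.92 ± 0.07), and ADGRG6 had 255 and 237 against 536 and 455 (1.09 ± 0.09).

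Of 26 tested lectin genes 15 rose and 2 fell (median log2 fold change 0.54), and among the 23 that reached the cut-off in both controls 13 rose and 2 fell. SELP, the selectin of platelet granules and endothelium, had 1253 and 1151 counts in control and 1836 and 1807 with DDX6 shRNA (log2 0.68 ± 0.05). Its main ligand is made from SELPLG, which moved the other way, with 620 and 526 against 249 and 212 counts (log2 -1.23 ± 0.09, edgeR adjusted p = 2.10e-11). CLEC11A, a secreted growth factor of the bone marrow, had 4410 and 3970 against 7171 and 6372 counts (log2 0.77 ± 0.04). The receptor gene CD33 fell (log2 -0.30 ± 0.05). SIGLEC16 (1.07 ± 0.08) has a near-identical copy in SIGLEC11 and is uncertain.

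Axon guidance families act on migration and vessel growth as well as on neurons. Of 46 tested semaphorin, plexin, ephrin and other guidance genes 22 rose and 2 fell (median log2 fold change 0.38), and among the 41 that reached the cut-off in both controls 18 rose and 2 fell. SEMA7A, a semaphorin anchored to the membrane, had 1915 and 1703 counts in control and 2652 and 2489 with DDX6 shRNA (log2 0.59 ± 0.04). SEMA4A had 115 and 140 against 273 and 261 counts (log2 1.15 ± 0.12), and the endothelial receptor gene ROBO4 had 116 and 110 against 325 and 298 (1.54 ± 0.11). The semaphorin and VEGF co-receptor gene NRP1 had 2 and 2 against 44 and 37 counts, a low level reached only in the DDX6 shRNA libraries. The laminin-related gene NTN4 was one of the falls (-0.85 ± 0.20).

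Of 24 tested serpins and metalloprotease inhibitors 13 rose, 0 fell and 11 were not called (median log2 fold change 0.29), of 90 in the table. Among the 23 that reached the cut-off in both controls 12 rose and 0 fell. TIMP1, an inhibitor of matrix metalloproteases, had 842 and 713 counts in control and 1588 and 1481 with DDX6 shRNA (log2 1.06 ± 0.06), and SERPINB1, an inhibitor of neutrophil proteases, had 2333 and 2100 against 3904 and 3518 (0.83 ± 0.04). Both groups were tight and apart for these inhibitors. The coagulation and complement list had 13 rises, 4 falls and 18 genes not called among 35 (median 0.27). Its 32 members that reached the cut-off in both controls had 12 rises and 4 falls. TFPI, the inhibitor of the tissue factor pathway, had 251 and 241 against 565 and 498 counts (log2 1.19 ± 0.08), and PROS1, encoding the anticoagulant protein S, had 1998 and 1826 against 3155 and 2915 (0.75 ± 0.04). CLU, the secreted chaperone clusterin, had 1874 and 1618 against 3542 and 3384 counts (log2 1.07 ± 0.04). Of 23 tested ADAM, ADAMTS and matrix metalloprotease genes 8 rose and 1 fell. The shedding protease gene ADAM10 had 3008 and 2761 against 4755 and 4333 counts (log2 0.74 ± 0.04), while ADAM8 had 54 and 58 against 18 and 15 (-1.67 ± 0.27). Without DDX6 shRNA replicate 2, 3 members of that list fell.

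Of 29 tested growth factor genes 14 rose and 5 fell (median log2 fold change 0.56), and among the 25 that reached the cut-off in both controls 12 rose and 5 fell. MANF, a secreted protein of the stressed endoplasmic reticulum, had 1128 and 1005 counts in control and 2112 and 1991 with DDX6 shRNA (log2 1.03 ± 0.05), and the heparin-binding factor gene MDK had 287 and 276 against 660 and 613 (1.26 ± 0.07). ANGPT1, the activating ligand of the receptor TIE2, had 913 and 815 against 1405 and 1271 counts (log2 0.71 ± 0.05). ANGPT2, which competes for that receptor, had 195 and 178 against 127 and 116 (-0.54 ± 0.12), so the pair moved in opposite directions. Without DDX6 shRNA replicate 1 the falls of this list were 3. Chemokine genes and their receptors had 10 rises and 3 falls among 18, and the falls came to 1 without any 1 of DDX6 shRNA replicate 2 and the 2 controls. CCL23, a chemokine for monocytes, had 74 and 81 against 274 and 268 counts (log2 1.89 ± 0.12). The TNF superfamily list had 13 rises and 2 falls among 30, and 10 rises and 2 falls among the 25 that reached the cut-off in both controls, with TNF at 332 and 341 against 536 and 576 counts (0.81 ± 0.08), and its falls came to 1 without DDX6 shRNA replicate 2 or control replicate 2. S100 proteins and annexins had 10 rises and 1 fall among 20 (median 0.35). ANXA6 had 389 and 360 against 892 and 816 counts (log2 1.27 ± 0.07), ANXA1, which limits inflammation, had 1050 and 828 against 1758 and 1589 (0.92 ± 0.06), and S100A4 and S100A6 both had 0.50 ± 0.04.

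RGS proteins shorten the active state of G alpha subunits, and 19 of 39 tested RGS and heterotrimeric G protein genes rose while 3 fell (median log2 fold change 0.27), 1 without control replicate 1. GNG11, a gamma subunit, had 360 and 325 counts in control and 722 and 691 with DDX6 shRNA (log2 1.13 ± 0.07), and RGS18, the RGS protein of platelets, had 1443 and 1246 against 2317 and 2074 (0.79 ± 0.05). RGS20 had 57 and 59 against 189 and 185 counts (1.77 ± 0.14). Calcium genes rose in 24 and fell in 10 of 62 tested cases, and in 22 and 10 of the 60 that reached the cut-off in both controls. CALR, the calcium-binding chaperone calreticulin, had 5359 and 4959 against 9833 and 9152 counts (log2 0.96 ± 0.04, edgeR adjusted p = 8.79e-17). ITPR1, the receptor through which inositol trisphosphate releases stored calcium, had 1487 and 1407 against 1917 and 1731 (log2 0.42 ± 0.05), whereas STIM1, the sensor of empty stores, had 1255 and 1203 against 903 and 978 (-0.30 ± 0.06). Of the TGF-beta, activin and BMP list 15 of 45 rose and 10 fell, with BMP6 at 143 and 152 against 388 and 351 counts (log2 1.41 ± 0.10) and the receptor gene ACVR2B at 665 and 583 against 357 and 330 (-0.78 ± 0.07). Wnt genes had 11 rises and 14 falls among 52, with the rises at 6 without DDX6 shRNA replicate 1 and the falls at 9 without control replicate 2. CTNNB1, encoding beta-catenin, had a log2 fold change of 0.41 ± 0.04, and the scaffold gene AXIN1 and the kinase gene GSK3B of its destruction complex had -0.42 ± 0.07 and -0.35 ± 0.06. APC, of the same complex, rose (0.52 ± 0.07). In the TGF-beta list 33.3% rose and 22.2% fell, and in the Wnt list 21.2% and 26.9%, against 24.0% and 22.1% of all genes. The TGF-beta falls and the Wnt rises thus stood near the background. In the Notch list, counted next, 26.3% rose, also near the background, and 15.8% fell. Notch genes had 10 rises and 6 falls among 38, with the rises at 6 without control replicate 1.

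Eicosanoids are lipid mediators cut from membrane arachidonic acid, and the 12-lipoxygenase and cyclooxygenase 1 branches are those known from platelets. Of 26 tested genes in the list 16 rose and 4 fell (median log2 fold change 0.28), with 12 and 4 by DESeq2. ALOX12, the platelet 12-lipoxygenase, had 718 and 701 counts in control and 1105 and 1103 with DDX6 shRNA (log2 0.72 ± 0.06), and PTGS1, cyclooxygenase 1, had 3034 and 2836 against 3832 and 3538 (0.41 ± 0.04). HPGD, which inactivates prostaglandins, was far more abundant, with 12696 and 11850 against 21231 and 19118 counts (log2 0.80 ± 0.04, edgeR adjusted p = 3.31e-15). Thromboxane synthase, TBXAS1, and the cytosolic phospholipase gene PLA2G4A, named here after their values were seen, had log2 fold changes of 0.61 ± 0.07 and 0.52 ± 0.08. The 4 falls held the calcium-independent phospholipase gene PLA2G6, with 1242 and 1370 against 423 and 569 counts (log2 -1.31 ± 0.09), and 3 genes of the leukotriene B4 branch. ALOX5, the 5-lipoxygenase, had 572 and 591 against 332 and 318 counts (log2 -0.76 ± 0.08). LTA4H, which makes leukotriene B4, had 1889 and 1721 against 1426 and 1290 counts (log2 -0.33 ± 0.05), and its receptor gene LTB4R had 218 and 219 against 123 and 125 (-0.74 ± 0.12). ALOX5AP, the membrane partner of ALOX5, went the other way, from 32 and 31 to 117 and 101 counts (1.87 ± 0.19). LTB4R shares exon sequence with LTB4R2 on the same strand.

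**Figure D3:**
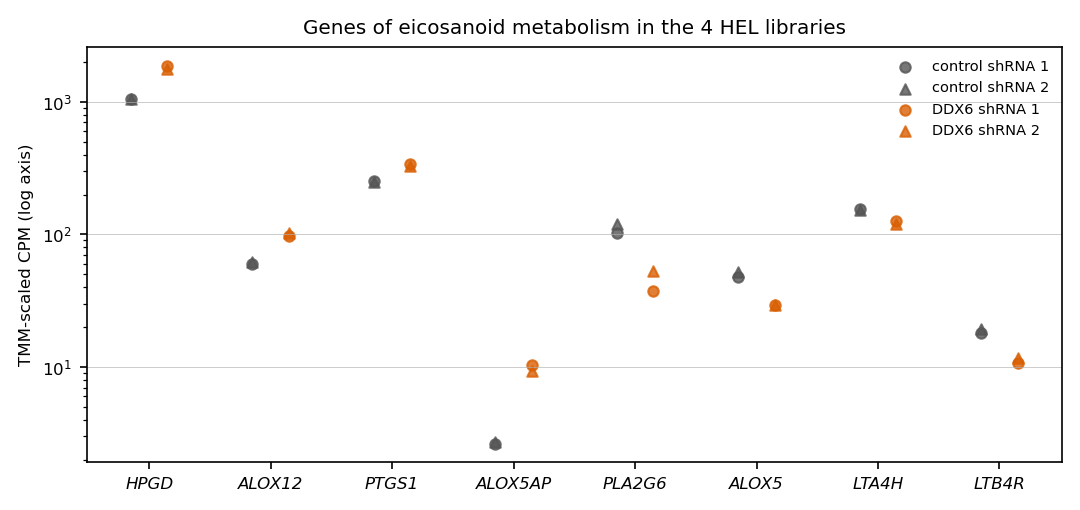
Level of the 8 eicosanoid genes named by rule in each HEL library, in TMM-scaled CPM on a log axis, grey for control shRNA and orange for DDX6 shRNA. HPGD, ALOX12, PTGS1 and ALOX5AP were higher in both DDX6 shRNA libraries and PLA2G6, ALOX5, LTA4H and LTB4R lower, without overlap.

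Enzymes of glycerophospholipids and phosphoinositides rose in 29 and fell in 10 of 70 tested cases, 6 falls without control replicate 1. PIK3CB, the beta isoform of phosphoinositide 3-kinase, which acts in platelets, had 2304 and 2159 counts in control and 3462 and 3275 with DDX6 shRNA (log2 0.68 ± 0.04). PIK3C2B had 35 and 35 against 156 and 125 counts (log2 2.08 ± 0.18), and the regulatory subunit gene PIK3R3 had 196 and 166 against 419 and 408 (1.27 ± 0.09). MBOAT7, which places arachidonic acid in phosphatidylinositol, had 1216 and 1186 against 1793 and 1737 counts (0.64 ± 0.05). Of 36 tested genes of fatty acid oxidation, 15 rose and 8 fell. DECR1, a mitochondrial enzyme for unsaturated fatty acids, had 1764 and 1580 against 2756 and 2485 counts (log2 0.73 ± 0.05), and the fatty acid receptor gene CD36 had 2186 and 2014 against 3204 and 3008 (0.65 ± 0.04). The thiolase gene ACAA2 fell (-0.46 ± 0.06). None of the 15 tested peroxins, the assembly factors of peroxisomes, rose at the threshold and 3 fell, among them PEX2 (-0.46 ± 0.07).

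The vacuolar proton pump acidifies lysosomes and secretory granules, through a membrane sector (V0) that carries protons and a catalytic sector (V1) that splits ATP. Of 19 tested subunit genes of 24 listed in all, 15 rose and 1 fell (median log2 fold change 0.31), and DESeq2 called 13 and 0. ATP6V0B, of the proton-carrying ring, had 2332 and 2229 counts in control and 3310 and 3015 with DDX6 shRNA (log2 0.55 ± 0.04), and ATP6V0E1 had 417 and 437 against 742 and 669 (0.81 ± 0.07). In the catalytic sector ATP6V1E1 had 1443 and 1355 against 1805 and 1720 counts (log2 0.42 ± 0.05) and ATP6V1C1 had 1211 and 1069 against 1498 and 1438 (0.45 ± 0.05). The groups did not overlap for any of these subunits. The fall was that of ATP6V1E2, a second form of the E subunit, with 121 and 90 against 65 and 58 counts (log2 -0.69 ± 0.17), which was not called by DESeq2 or without control replicate 1 and shares exon sequence with RHOQ on the opposite strand. The subunit genes moved by similar small steps, with called rises between 0.20 (ATP6V1H) and 0.81 (ATP6V0E1).

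Because 15 of the 19 tested subunit genes rose, their promoters were searched for CACGTG, the palindromic E-box core bound by lysosomal gene regulators among other factors. The window was the 250 bases before the start in RefSeq (GRCh38.p14), and CACGTG reads the same on both strands. It was present in 4 of the 13 subunit genes with a promoter entry (30.8%) and in 1173 of the 10599 tested genes with one (11.1%). It was present in 11.2% of genes that rose and 11.5% of genes that fell, so over all genes its share was close in both directions. Its share was also above that of all genes in 2 lists with more falls than rises, at 7 of 32 m6A and mRNA modification factors (21.9%) and 6 of 33 ZBTB genes (18.2%), and was 2 of 40 in the Fanconi and homologous recombination list. Of 3 other motifs searched on both strands, CCGGAAG was in 2 of the 13 pump promoters (15.4%, against 19.0% of all), and TTTCGCGC and the NRF1 motif were in 0 (0.953% and 5.37% of all). Over all genes that rose, CCGGAAG, TTTCGCGC and the NRF1 motif were in 16.8%, 0.620% and 3.76%. Over all that fell, they were in 20.5%, 1.23% and 7.74%, and this difference was not tested. The promoters of ATP6V0B (chr1:43974710-43974959, plus strand) and ATP6V0D1 (chr16:67481158-67481407, minus strand) are shown as examples with the CACGTG match in capitals. A match describes the letters and not binding.
ATP6V0B: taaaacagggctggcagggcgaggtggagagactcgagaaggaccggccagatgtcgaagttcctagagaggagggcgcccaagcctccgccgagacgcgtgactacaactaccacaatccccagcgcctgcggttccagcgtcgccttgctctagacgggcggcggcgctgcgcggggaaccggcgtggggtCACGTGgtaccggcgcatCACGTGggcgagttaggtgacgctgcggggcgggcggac
ATP6V0D1: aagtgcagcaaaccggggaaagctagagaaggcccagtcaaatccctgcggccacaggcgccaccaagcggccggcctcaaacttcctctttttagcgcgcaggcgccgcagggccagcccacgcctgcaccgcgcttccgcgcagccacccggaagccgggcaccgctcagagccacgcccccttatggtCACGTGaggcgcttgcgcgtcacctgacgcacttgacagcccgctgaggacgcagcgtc
ATP6V0B held 2 matches and ATP6V0D1, at 508 and 462 counts in control and 696 and 651 with DDX6 shRNA (log2 0.56 ± 0.07), held 1. ATP6V0E2 and ATP6V1G1 were the other subunit genes with a match.

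**Figure D4:**
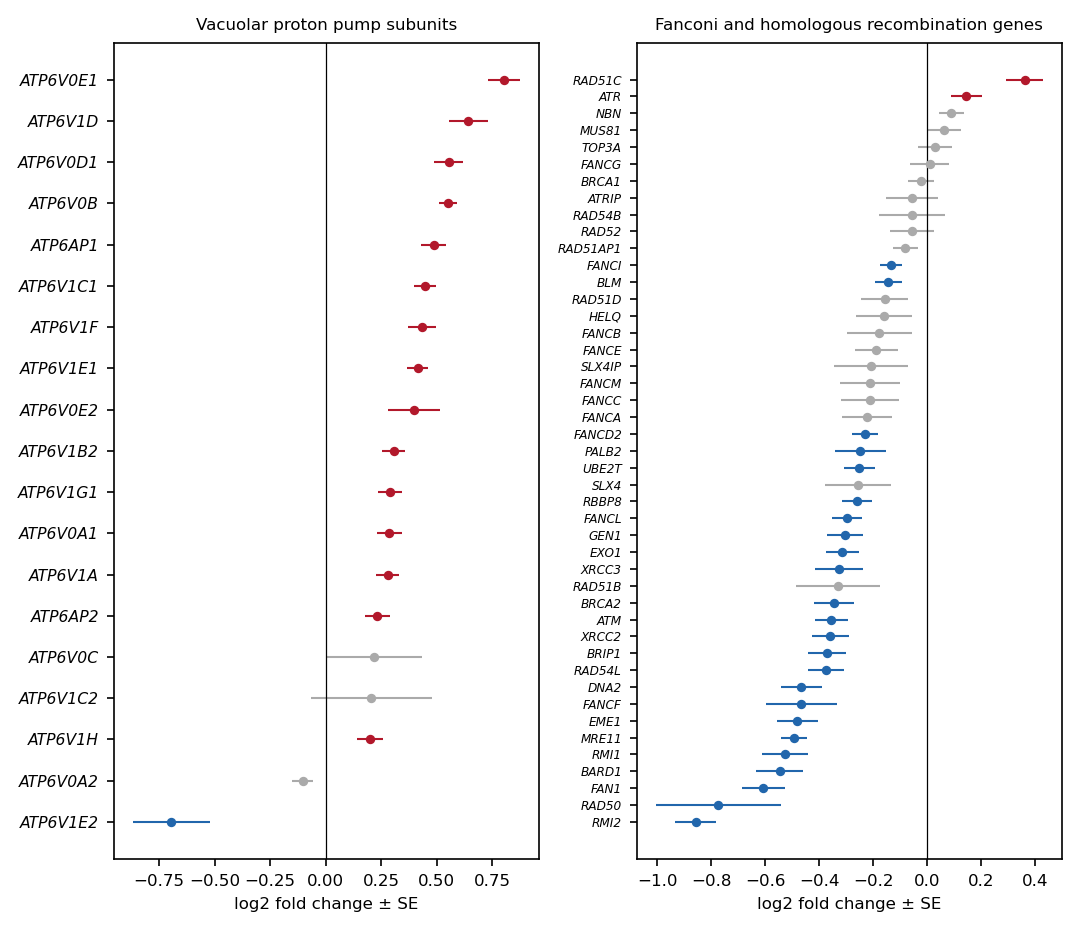
Log2 fold change ± SE of the 19 tested members of the vacuolar proton pump list (left) and of 45 of the 46 tested members of the Fanconi and homologous recombination list (right), red for called higher, blue for called lower and grey for not called. The pump genes lie mostly to the right of 0 (15 higher, 1 lower) and the repair genes mostly to the left (2 higher, 24 lower).

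Genes of the actin cytoskeleton and of vesicle traffic leaned towards rises. Of 71 tested actin, myosin and contractile genes 37 rose and 11 fell (median log2 fold change 0.16), 33 and 8 by DESeq2. GSN, encoding gelsolin, had 766 and 701 counts in control and 2031 and 1842 with DDX6 shRNA (log2 1.48 ± 0.05), and CAPG, of the same family, had 681 and 605 against 1463 and 1259 (1.16 ± 0.06). The actin disassembly factor gene WDR1 (0.54 ± 0.04) and the tropomyosin gene TPM4 (0.44 ± 0.03) rose. Of the 10 Arp2/3 complex genes, which branch actin filaments, 5 rose and 0 fell, with ARPC2 at 0.31 ± 0.04. TIAM1, an exchange factor for Rac, had 1897 and 1816 against 1160 and 1093 (-0.64 ± 0.05). The list of kinesins and dyneins (16 higher and 16 lower of 54) was less one-sided. Among the motors, the dynein light chain gene DYNLL1 rose (0.48 ± 0.04) and the mitotic kinesin genes KIFC1 (-0.49 ± 0.05), KIF4A (-0.40 ± 0.05) and KIF11 (-0.29 ± 0.05) fell. In the list of tubulins and gamma-tubulin complex proteins 10 of 24 rose, with TUBA4A at 3036 and 2825 against 4908 and 4320 counts (0.74 ± 0.04), and 4 fell, 2 without DDX6 shRNA replicate 1.

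Rab GTPases, which label vesicles, rose in 22 and fell in 10 of 53 tested cases, 5 without DDX6 shRNA replicate 2. RAB27B and RAB32, which act in platelet granules, had 2358 and 2214 counts in control against 2986 and 2756 with DDX6 shRNA (log2 0.41 ± 0.04) and 603 and 534 against 835 and 803 (0.61 ± 0.06). The fusion protein gene VAMP3 had 1170 and 1073 against 1962 and 1846 counts (log2 0.85 ± 0.05), and VAMP8, the main vesicle fusion protein of platelets, had 1734 and 1431 against 2198 and 1895 (0.45 ± 0.05). Of 45 SNARE and related genes 16 rose and 4 fell, 2 without DDX6 shRNA replicate 1 or control replicate 1. Coat subunits rose in 24 and fell in 7 of 52 cases, 4 without control replicate 2, with COPZ2 at 72 and 53 against 154 and 139 counts (1.31 ± 0.16). Not all granule genes rose: in the list of platelet granule and lysosome-related organelle assembly 10 of 34 rose and 9 fell. These shares, 29.4% and 26.5%, compare with 24.0% and 22.1% of all genes. BLOC1S6, a subunit of the assembly complex BLOC-1, had 1741 and 1480 against 971 and 905 counts (log2 -0.70 ± 0.05), and the adaptor subunit gene AP3D1 had 1740 and 1725 against 1328 and 1198 (-0.38 ± 0.05). Autophagy genes had 24 rises (34.8%) and 15 falls (21.7%) among 69. The cargo receptor gene SQSTM1 had a log2 fold change of 0.59 ± 0.05 and GABARAPL1, of the vesicle-forming family, 1.11 ± 0.09, whereas the energy-sensing kinase gene PRKAA1 (-0.57 ± 0.05) and the mTORC1 inhibitor gene SESN2 (-0.93 ± 0.09) fell.

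Erythroid cells take up iron in bulk for haem. Of 23 tested genes for iron uptake and storage 7 rose and 9 fell (median log2 fold change -0.09). At the cell surface TFRC, the transferrin receptor gene, had 11549 and 10654 counts in control and 15143 and 13309 with DDX6 shRNA (log2 0.44 ± 0.04), and SLC40A1, encoding the iron exporter ferroportin, had 2919 and 2755 against 4125 and 3823 (0.57 ± 0.04). SLC25A37, mitoferrin 1, which brings iron into mitochondria, had 7252 and 7068 against 5404 and 5311 counts (log2 -0.34 ± 0.04), and ABCB10, its partner in the inner membrane, had 1519 and 1430 against 881 and 864 (-0.67 ± 0.05). TF, the transferrin gene itself, had 1315 and 1182 against 937 and 900 counts (-0.36 ± 0.05). Of 49 genes for glutathione, thioredoxin and NRF2 targets 21 rose and 7 fell. GSTM3 had 1187 and 1059 against 2237 and 2030 counts (log2 1.01 ± 0.05), PRDX4, the peroxiredoxin of the endoplasmic reticulum, 865 and 830 against 1366 and 1326 (0.75 ± 0.05), and PRDX2, the peroxiredoxin abundant in red cells, 817 and 804 against 580 and 578 (-0.40 ± 0.06). GCLC, the rate-limiting enzyme of glutathione synthesis, fell (-0.53 ± 0.07), as did the thioredoxin inhibitor gene TXNIP (-0.52 ± 0.04). AKR1C1 (2.04 ± 0.11) has near-identical copies in AKR1C2 and AKR1C3, and metallothioneins, 4 higher of 6 tested with MT2A at 0.47 ± 0.07, are also near-identical copies, so single members are uncertain.

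Central metabolism was mixed. The citric acid cycle list had 10 rises and 10 falls among 37, each 6 without DDX6 shRNA replicate 1 and without control replicate 1 respectively. The partner subunits of succinyl-CoA ligase parted: SUCLG1, the shared alpha subunit, had 1470 and 1400 counts in control and 1761 and 1621 with DDX6 shRNA (log2 0.32 ± 0.05), and SUCLG2, the GTP-forming beta subunit, had 1264 and 1154 against 902 and 823 (-0.41 ± 0.05). Of 29 pyrimidine genes 4 rose and 9 fell, with the falls at 5 without DDX6 shRNA replicate 1 and 4 without control replicate 1, and the rises at 2 without DDX6 shRNA replicate 1. CMPK1, which phosphorylates CMP and UMP, had 3445 and 3267 against 2012 and 1811 counts (log2 -0.73 ± 0.04, edgeR adjusted p = 5.98e-13). Among purine genes the salvage enzyme gene PNP rose (0.51 ± 0.04) and the guanylate kinase gene GUK1 fell (-0.66 ± 0.06). In polyamine metabolism ARG2, the mitochondrial arginase, had 97 and 84 against 218 and 200 counts (log2 1.29 ± 0.13) and SMOX, spermine oxidase, 245 and 256 against 466 and 397 (0.86 ± 0.09). Mitochondrial import and carriers held clear changes of single genes, such as the import receptor gene TOMM20, with 5125 and 4794 against 3326 and 3090 counts (-0.55 ± 0.04), and the nucleotide carrier gene SLC25A36, with 2300 and 2076 against 1294 and 1275 (-0.69 ± 0.05).

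The Fanconi and homologous recombination genes repair crosslinks and broken strands, and of 46 tested 24 fell (18 by DESeq2), 20 were not called and 2 rose, or 1 when any 1 library was left out (median log2 fold change -0.24), all 46 above the cut-off in both controls. RMI2, of the BLM dissolvasome, had 744 and 625 counts in control and 382 and 332 with DDX6 shRNA (log2 -0.86 ± 0.08), and RMI1, its partner, had 453 and 394 against 291 and 264 (-0.53 ± 0.08). MRE11, the nuclease that starts break resection, had 1797 and 1685 against 1180 and 1154 counts (log2 -0.49 ± 0.05), and the crosslink nuclease gene FAN1 had 787 and 859 against 477 and 544 (-0.61 ± 0.08). The falls reached recombination mediators, with BARD1 at -0.55 ± 0.09 and BRCA2 at -0.35 ± 0.07. RMI1, BARD1 and BRCA2, and the uncalled gene that follows, lay outside the naming rule and were picked after their values were seen. BRCA1 had 1702 and 1486 against 1520 and 1441 counts, with overlapping libraries. RAD51C rose (0.36 ± 0.07). MRE11 and FAN1 share exon sequence with ANKRD49 and MTMR10 on the opposite strand. Genes of base excision, mismatch and nucleotide excision repair fell in 15 of 55 cases (27.3%), were not called in 32 and rose in 8. DESeq2 called 2 higher and 11 lower. The share that fell was near the background, at 22.1% of all genes and 23.8% of protein-coding genes. In the quintile of genes with the highest mean CPM it was 30.2%. UNG, which removes uracil from DNA, had 1419 and 1396 against 824 and 743 counts (log2 -0.76 ± 0.05), and LIG1, the ligase of replication, had 1498 and 1431 against 974 and 1020 (-0.47 ± 0.05).

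ZBTB genes, zinc finger repressors with a BTB domain, fell in 18 of 39 tested cases, were not called in 17 and rose in 4, or 2 without DDX6 shRNA replicate 1 (median log2 fold change -0.26). ZBTB44 had 2767 and 2545 counts in control and 1544 and 1505 with DDX6 shRNA (log2 -0.72 ± 0.04), and ZBTB11 had 2190 and 2096 against 1409 and 1330 (-0.56 ± 0.05). Of 18 KLF and SP genes 7 fell, 11 were not called and 0 rose (median -0.28), among them SP3 at 1493 and 1366 against 1083 and 1025 counts (-0.36 ± 0.05) and KLF13 (-0.36 ± 0.06). FOXO3, a stress-responsive forkhead factor active in erythroid maturation, had 839 and 837 against 590 and 562 counts (log2 -0.46 ± 0.06). HOXB9 had 1289 and 1296 against 594 and 594 counts (log2 -1.04 ± 0.06, edgeR adjusted p = 4.93e-13), the clearest change among HOXB, HOXC and HOXD genes. In the opposite direction the vitamin D receptor gene VDR had 146 and 138 against 333 and 266 counts (1.16 ± 0.11). Among circadian genes 8 of 19 fell (5 without DDX6 shRNA replicate 1 or control replicate 2), with BHLHE40 at -0.60 ± 0.07, and PER1 rose (0.52 ± 0.08).

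Factors for m6A and other mRNA modifications fell in 15 of 37 tested cases, were not called in 18 and rose in 4, or 2 without DDX6 shRNA replicate 1, DDX6 shRNA replicate 2 or control replicate 2. The demethylase gene ALKBH5 had 518 and 524 counts in control and 350 and 333 with DDX6 shRNA (log2 -0.53 ± 0.08), CBLL1, an E3-like subunit of the methyltransferase complex, had 472 and 493 against 328 and 311 (-0.51 ± 0.08), and the reader gene IGF2BP1 had 4027 and 4023 against 3179 and 3025 (-0.29 ± 0.04). The RNA methyltransferase gene NSUN2, of m5C, rose (0.28 ± 0.04). F-box proteins choose substrates for the SCF ubiquitin ligase, and 17 of 51 fell while 2 rose, 0 without DDX6 shRNA replicate 2 and 1 without control replicate 2. SKP2, which marks the inhibitor p27 for destruction, had 1015 and 980 against 652 and 585 counts (log2 -0.61 ± 0.06), and FBXL20 had 343 and 328 against 126 and 158 (-1.16 ± 0.11). Median log2 fold change was only -0.05 in that list. Deubiquitinases and conjugating enzymes (32 higher and 24 lower of 108) stood near the background, with USP1, which acts on the Fanconi protein FANCD2, at 3139 and 2913 against 2245 and 2053 counts (-0.41 ± 0.04). In the list of RNA polymerase subunits 6 of 33 rose (18.2%), 3 fell (9.09%) and 24 were not called (median 0.05). Its lowest value was that of POLR2M, a regulator of the polymerase, with 706 and 639 against 345 and 306 counts (-0.96 ± 0.07).

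Of 352 tested antisense-named RNAs 29 rose and 60 fell (median log2 fold change -0.11), of which DESeq2 called 9 and 22, and of 191 LINC-named RNAs 41 rose and 25 fell. Among those that reached the cut-off in both controls, 21 rose and 60 fell of 319 antisense-named RNAs, and 30 rose and 25 fell of 163 LINC-named RNAs. By annotation class, 682 antisense genes had 8.21% higher and 13.3% lower, and 71 sense intronic genes had 5.63% and 19.7% (median -0.25), against 27.1% and 23.8% of 12193 protein-coding genes. The share called also moved with level, from 15.7% higher and 7.21% lower in the quintile of genes with the lowest mean CPM to 34.6% and 30.2% in the highest, and its part in the difference between classes was not tested. OIP5-AS1 had 2600 and 2468 counts in control and 1733 and 1704 with DDX6 shRNA (log2 -0.48 ± 0.04), and it overlaps OIP5 on the opposite strand. STXBP5-AS1 had 115 and 77 against 312 and 300 counts (log2 1.75 ± 0.13).

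Host transcripts of microRNAs are long RNAs from which the hairpin is cut. What was counted here is the host, and mature microRNAs were not measured. Of 25 hosts tested 4 rose and 5 fell, with the rises at 2 without DDX6 shRNA replicate 2 or control replicate 1 and the falls at 3 without control replicate 1. Among the 23 that reached the cut-off in both controls 3 rose and 5 fell. Over all 25 hosts the shares were 16% and 20%, against 24.0% and 22.1% of all genes. The hosts with the clearest changes around well-known microRNAs held the following mature arms, matched by position within the host on the same strand (RefSeq, GRCh38.p14), with the seed, bases 2 to 8, in capitals.
miR-22-3p: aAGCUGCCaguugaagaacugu
miR-210-3p: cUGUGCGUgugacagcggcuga
miR-146a-5p: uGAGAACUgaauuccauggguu
The seeds differ among the 3. MIR22HG, which holds miR-22-3p (chromosome 17, 1713914 to 1713935, minus strand), had 11 and 9 counts in control and 48 and 44 with DDX6 shRNA (log2 2.27 ± 0.31), and it passed the filter only through the DDX6 shRNA group, since control replicate 2 lay under the cut-off. MIR210HG, which holds miR-210-3p of the hypoxia response (chromosome 11, 568112 to 568133, minus strand), had 59 and 46 against 21 and 26 counts (log2 -1.07 ± 0.26). MIR3142HG, which holds miR-146a-5p, a brake on inflammatory signalling (chromosome 5, 160485372 to 160485393, plus strand), had 257 and 240 against 150 and 137 counts (log2 -0.71 ± 0.11).

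Fold changes moved slightly with the shape of the mRNA. Over the 12164 protein-coding genes with a coding sequence, those in the quintile with the shortest coding sequences (median 561 bases) rose in 31.4% and fell in 18.0% of cases, and those in the quintile with the longest (3567 bases) in 24.8% and 29.4%. The quintile with the lowest GC content at the wobble position of codons (median 36.03%) rose in 21.2% and fell in 29.1% of cases, and the highest quintile (80.5%) in 28.9% and 20.6%. The quintile with the longest 3' UTRs rose in 24.5% and fell in 29.3%, and the shortest quintile in 29.2% and 19.8%. Medians of the log2 fold change ran only from -0.04 to 0.08 across the quintiles of these 3 properties. The Spearman correlation across genes, which are not independent replicates, was -0.08 for coding length, 0.09 for GC at wobble positions and -0.06 for 3' UTR length. Libraries of the same group also differed in GC. On the log2 scale, the highest GC quintile minus the lowest was -0.064 and -0.024 in the controls. With DDX6 shRNA it was 0.027 and 0.070. By chromosome, genes on 13 (14.8% higher, 28.0% lower) and 18 (16.8% and 29.9%) fell more often than rose, and genes on X (28.0% and 16.8%) the reverse.

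Markers were used to check the label. Erythroid markers summed to 1936 and 1896 CPM in the control libraries and 2356 and 2263 CPM with DDX6 shRNA, and megakaryocytic markers to 2130 and 2226 CPM against 2349 and 2504 CPM. Of the 10 megakaryocytic markers, 7 rose (GP9, SELP, ITGB3, VWF, PF4, PPBP and GP1BA) and 0 fell, and ITGA2B was among those not called. Of these, VWF, PF4 and PPBP did not reach the filter's cut-off in both control libraries and so entered through the DDX6 shRNA group. VWF, for example, had 3 and 1 counts in control and 20 and 17 with DDX6 shRNA. Both sets were present in every library, with ITGA2B at 13544 and 13553 against 12873 and 13356 counts and the erythroid regulator GATA1 at 3078 and 2795 against 2904 and 2606. SLC4A1 and HBE1 did not pass the filter, and 12 of 14 erythroid markers were tested, 4 higher and 1 lower. The 5 granulocytic markers (MPO, CEBPE, AZU1, PRTN3 and ELANE) summed to at most 0.187 CPM. They had 3 counts or fewer, as had the monocytic markers FCN1, MPEG1 and S100A9, the T cell markers CD3D, CD3E and CD3G and the B cell marker MS4A1. Summed monocytic markers went from 41.2 and 37.6 CPM to 88.6 and 92.4 CPM, carried by LYZ and VCAN, with 2 of 3 tested members higher. T and NK cell markers went from 12.5 and 11.4 to 18.2 and 22.7 CPM, B cell markers from 6.28 and 5.73 to 12.3 and 14.8 CPM, stromal and endothelial markers from 224 and 237 to 286 and 280 CPM, and epithelial markers from 68.1 and 60.6 to 71.3 and 78.9 CPM. The part of these levels in the rises of surface and secreted genes was not tested.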

How the data were processed

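RNA sequencing counts of 4 HEL libraries were analysed, 2 with control shRNA and 2 with DDX6 shRNA. The authors deposited raw counts, whole numbers per gene. Extraction used a miRNeasy kit and library preparation a NEBNext kit, per the labels' protocols. Tools named in the submitters' processing notes are STAR, SAMtools 1.12 and DESeq2, with genome GRCh38. The sources used here do not give the counter, annotation release or strand setting.

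Genes were filtered within HEL (filterByExpr, minimum count 10), scaled with TMM and tested with edgeR 4.0.16 (glmQLFit, glmQLFTest, R 4.3.3), two-sided, with Benjamini-Hochberg adjustment over 14918 genes. The SE is the absolute log2 fold change divided by the square root of F. The fit was tested on simulated data. Alternatives were DESeq2 1.42.0, other scalings and filters, a joint fit with MOLM-13, a replicate block and leaving out each library. Coordinates, lengths and overlaps of at least 100 bases came from GENCODE 29.

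The members, 76 lists and tests were chosen with earlier results of these data known. Genes were named by rule, leaving out 72 genes already known from those results. The first rule took the 15 largest changes each way at 5 CPM or more with no overlap of libraries. Others took the 10 smallest p each way at 100 CPM or more and up to 4 called members per list and direction (some not printed). The last took genes with at most 3 counts in 1 group and 30 or more in the other, up to 10 each way by the larger count. Intervals are exact at 95%. A few items chosen by these rules are not reported here.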

Additional observations from a re-analysis of the deposited data

How the results depend on the processing

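DESeq2 called 2152 genes higher and 1784 lower, against 3578 and 3297 with edgeR, and all 3936 of its calls were also edgeR calls. Leaving out 1 library gave 2796 to 3152 higher and 2551 to 2876 lower. Calls split 52.0% higher with TMM, between 49.97% with upper-quartile scaling and 56.6% in the joint fit with MOLM-13. Counts of higher and lower genes were 3600 and 3277 with RLE scaling, 3453 and 3457 with upper-quartile scaling, 3391 and 3213 without the low-count filter, 3111 and 3083 at a minimum count of 50, and 3275 and 2514 in the joint fit. The log2 fold change of DDX6 ranged from -0.95 to -0.91 over all alternatives run, and no result among those tried changed sign while called. Replicate numbers did not pair the samples by the check made (correlation of deviations 0.064, with 2 pairs only), and a fit with the replicate block called 3732 and 3524. Of 573 named genes, 35 to 38 lost their call when 1 library was left out, 33 in the joint fit and 77 of 566 with DESeq2, against 0 with the replicate block. Of 152 list counts, DESeq2 moved 86 by more than 1.5 times, the joint fit 21 and leaving out 1 library 15 to 24. With 1 library left out, the lone sample is assumed to vary like the other group. Genes under about 0.875 CPM could not be tested, so shares in families with few tested members say little of the rest.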

Other observations

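Some counts outside the lists discussed show how individual families behaved. Among solute carriers not sited in mitochondria, 45 of 138 tested rose and 21 fell, and of the 127 that reached the cut-off in both controls 39 rose and 21 fell. SLC37A1, a sugar phosphate carrier related to SLC37A2, had 1829 and 1742 counts in the controls and 2685 and 2576 with DDX6 shRNA (log2 fold change 0.64 ± 0.04). The inositol carrier gene SLC5A3 had 1528 and 1365 against 870 and 883 counts (-0.64 ± 0.05), and SLC45A3 had 1527 and 1532 against 841 and 804 (-0.81 ± 0.05). ABCB1, the drug efflux pump, had 1371 and 1314 against 1859 and 1650 counts (0.47 ± 0.05), and ABCG1, a cholesterol exporter, had 781 and 738 against 573 and 489 (-0.44 ± 0.07).

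The nuclear lamina genes moved in different directions. LMNA, encoding lamins A and C, had 3025 and 2851 counts in control and 3589 and 3419 with DDX6 shRNA (log2 fold change 0.34 ± 0.04), while LMNB1 had 3030 and 2753 against 2248 and 2036 (-0.35 ± 0.04) and LMNB2 had 1769 and 1656 against 1337 and 1179 (-0.36 ± 0.05). Among proteoglycan genes SRGN, the core protein of platelet granule proteoglycan, had 950 and 834 against 1524 and 1458 counts (0.82 ± 0.05), and HPSE, the enzyme that cuts heparan sulphate, had 212 and 219 against 526 and 483 (1.31 ± 0.09). The list of heparan and chondroitin sulphate enzymes had 9 rises and 10 falls among 38 (23.7% and 26.3%). These shares stood near those of all genes, 24.0% and 22.1%. Groups did not overlap for any gene named in these paragraphs.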
